A study of Homo sapiens with 6 samples.

Results

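Integrins are cell surface receptors made of 1 α and 1 β subunit, and 9 subunit genes grouped as binding laminin or collagen were followed here. ITGB8 is in the set although it is best known for another role, given below. The members were found by symbol, with no cut-off on measured values, although the set was proposed with earlier results of these data known: ITGA1, ITGA2, ITGA3, ITGA6, ITGA7, ITGA10, ITGA11, ITGB4 and ITGB8. All 9 were found among the 58735 genes of the deposited count table. The study sequenced poly(A)-selected RNA of human ovarian carcinoma cells in 6 libraries, 3 labelled control and 3 labelled BARD1-expressing, to ask how BARD1, the partner of BRCA1, affects tumour angiogenesis pathways. Both groups are labelled as stable cells at 48 h. Per the labels' protocols, a BARD1 open reading frame was carried into OVCAR8 cells by lentivirus and its expression was followed as GFP-BARD1. The labels do not say what vector, if any, the control cells received, so BARD1 and other differences between control and transduced cells cannot be told apart. The labels conflict on the line and the material: the titles have OVCAR8ip1 cells, while SKOV3ip1 stands under cell line and SKOV3ip1 tumors under source and tissue. The labels call the replicates biological without naming separate cultures, so the spread behind each p-value is that of these libraries and may be technical.

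Integrins link the extracellular matrix to the actin or keratin cytoskeleton and signal in both directions across the membrane. The α subunit largely sets the ligand. In partnership with β1, the subunits α1, α2, α10 and α11 (ITGA1, ITGA2, ITGA10, ITGA11) bind collagens through an inserted I domain, and α3, α6 and α7 (ITGA3, ITGA6, ITGA7) bind laminins. The β4 subunit (ITGB4) pairs only with α6, and α6β4 anchors epithelial cells to laminin-332 in hemidesmosomes. The β8 subunit (ITGB8) pairs with αV and is best known for activating latent TGF-β rather than for adhesion to laminin or collagen.

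The libraries held 12744310 to 24349158 counted reads, and BARD1-expressing library 1 was the shallowest. Levels are reads per 1000000 counted reads after TMM scaling, which evens out library composition (TMM CPM), and a count of 0 allows up to 0.123 to 0.235 CPM, for counting error only. BARD1 itself stood at 17.9 ± 1.3 CPM in control and 46.3 ± 2.43 CPM in BARD1-expressing libraries (SD, n = 3 per group). The keratins KRT7, KRT8 and KRT18 were abundant, and MUC16 and the fibroblast gene DCN had no read in any library. EPCAM stood at 19.2 ± 0.491 and 19.004 ± 1.01 CPM in control and BARD1-expressing libraries. The epithelial gene CDH1 was low in both, at 1.08 ± 0.183 and 0.999 ± 0.059 CPM, and was not called. Of 7 tested epithelial and serous ovarian carcinoma markers 2 were higher and 1 lower. By the edgeR test described below, 16.5% of all tested genes were higher and 12.4% lower, to be set beside each marker count here. KRT7 (log2 fold change 0.34 ± 0.049) and WT1 (1.43 ± 0.47, both group means under 1 CPM) rose. WT1 had 10, 7 and 10 reads in control libraries and 5, 43 and 11 in BARD1-expressing libraries. Its groups thus overlapped despite the call, and most of the rise came from BARD1-expressing library 2. The Müllerian lineage factor PAX8 fell from 143 ± 8.98 to 91.4 ± 6.09 CPM. The leukocyte gene PTPRC had 1 read over all 6 libraries together and CD3E had 0, while the 8 leukocyte markers, mostly ITGB2, summed to 6.53 to 8.33 CPM in control and 11.4 to 14.4 CPM in BARD1-expressing libraries, with 1 of 3 tested higher. The endothelial genes ESAM and KDR, 2 of 2 tested, were higher, and EMCN had 0 reads. The 8 endothelial markers, mostly ESAM, summed to 2.06 to 2.1 CPM in control and 6.06 to 7.9 CPM in BARD1-expressing libraries. ESAM rose from 1.19 ± 0.113 to 5.38 ± 0.891 CPM, while each other endothelial marker had both group means under 1 CPM. The 9 fibroblast and pericyte markers summed to 1016 to 1083 and 841 to 888 CPM, nearly all of it COL1A1, with 3 of 5 tested higher and 1 lower. COL1A1 was the lower one. PDGFRB rose from 4.81 ± 0.634 to 13.7 ± 0.922 CPM, and ACTA2 and LUM rose with both group means under 1 CPM. The part of these markers in the results below was not tested. In bulk RNA, fewer cells expressing a gene and less RNA per cell cannot be told apart.

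Of the 9 subunits, 7 had enough reads to be tested, 3 were higher and 3 lower in BARD1-expressing cells, and ITGA6 was not called. Calls rest on edgeR's quasi-likelihood test with Benjamini-Hochberg adjustment over 15400 tested genes at an adjusted p under 0.05. Over all tested genes 29.0% were called, 16.5% higher and 12.4% lower. ITGB4, ITGA3 and ITGA1 rose, and ITGA7, ITGB8 and ITGA2 fell. The libraries of the groups did not overlap for 6 of the 7 tested subunits, against 40.9% of all tested genes. The median log2 fold change of the 7 was -0.03, and it was -0.003 over all tested genes. For each of those 6 subunits an exact two-sided permutation test gave p = 0.1, and no smaller p is possible with 3 libraries a group.

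**Figure D1:**
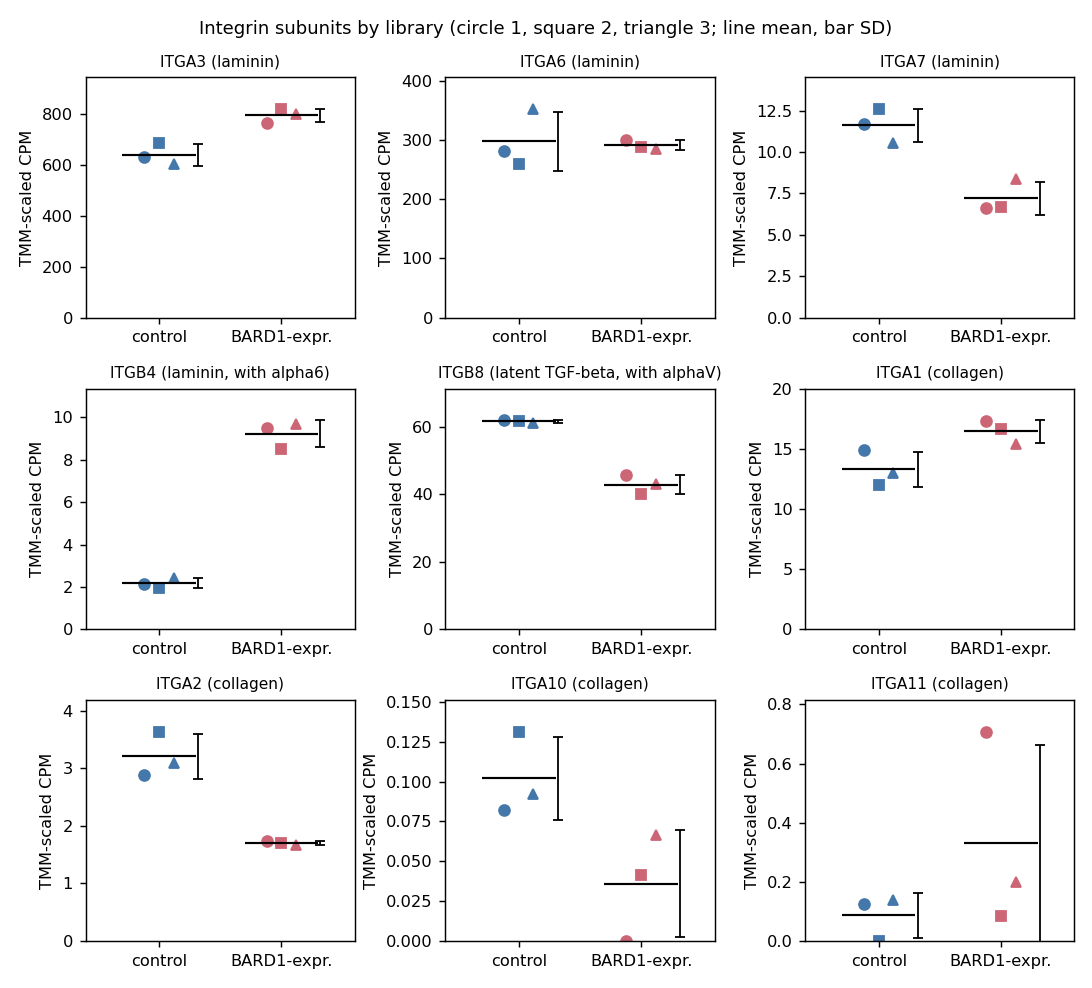
TMM-scaled CPM of each of the 9 subunits in the 3 control (blue) and 3 BARD1-expressing (red) libraries, on axes that start at 0. Black lines are group means and bars are SD. ITGB4 lies between 1.97 and 2.44 CPM in control and between 8.51 and 9.69 CPM in BARD1-expressing libraries, whereas ITGA6 overlaps between the groups and ITGA10 and ITGA11 stay below 1 CPM.

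Among the laminin-binding α subunits, ITGA3 rose, ITGA7 fell and ITGA6 was not called. ITGA3 (ENSG00000005884, chromosome 17, 50055968 to 50090481, GRCh38) encodes α3, a receptor for laminin-332 and laminin-511. Its level was 630, 686 and 601 CPM in control libraries 1 to 3 and 763, 817 and 798 CPM in BARD1-expressing libraries 1 to 3. Every BARD1-expressing library lay above every control library, with a gap of 77.2 CPM. The log2 fold change was 0.31 ± 0.052 (SE), or 1.24-fold (edgeR adjusted p = 5.83e-05).

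ITGA6 (ENSG00000091409, chromosome 2, 172427354 to 172506282) encodes α6, which pairs with β1 or β4. It had 281, 259 and 353 CPM in control libraries and 300.3, 288 and 284 CPM in BARD1-expressing libraries. Control library 3 was the highest and control library 2 the lowest of all 6, so the control range enclosed the whole BARD1-expressing range. The log2 fold change was -0.03 with a 95% interval of -0.3 to 0.24 (edgeR adjusted p = 0.868), and it was 0.11 without control library 3, also not called (edgeR adjusted p = 0.193). The counts do not separate the splice variants of ITGA6 that differ in the cytoplasmic tail, and 7 protein-coding transcripts are annotated.

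ITGA7 (ENSG00000135424, chromosome 12, 55684568 to 55716043) encodes α7, best known as the laminin receptor of skeletal muscle. It had 11.7, 12.6 and 10.6 CPM in control libraries and 6.61, 6.69 and 8.36 CPM in BARD1-expressing libraries. The groups did not overlap, and BARD1-expressing library 3 came nearest to the controls. ITGA7 fell by 0.69 ± 0.127 on the log2 scale, or 1.62-fold (edgeR adjusted p = 0.000189). METTL7B, on the opposite strand, shares 44 annotated exon bases with ITGA7, 0.816% of its exon length being shared with any other gene, and METTL7B rose (log2 fold change 0.68 ± 0.118, edgeR adjusted p = 9.51e-05).

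ITGB4 showed the largest change of the 7 tested subunits. It (ENSG00000132470, chromosome 17, 75721328 to 75757818) had 52, 45 and 53 reads in control libraries and 121, 206 and 146 reads in BARD1-expressing libraries. These reads correspond to 2.15, 1.97 and 2.44 CPM in control and 9.52, 8.51 and 9.69 CPM in BARD1-expressing libraries. The lowest BARD1-expressing library stood 6.06 CPM above the highest control library. The log2 fold change was 2.07 ± 0.162, or 4.2-fold (edgeR adjusted p = 5.13e-10), and it lay between 1.998 and 2.15 when 1 library was left out. No annotated exon base of ITGB4 is shared with another gene, although the gene interval overlaps that of GALK1 on the opposite strand.

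Since β4 needs α6, ITGB4 was also set against ITGA6 within each library, per kilobase of annotated gene length. ITGB4 amounted to 0.746%, 0.744% and 0.676% of ITGA6 in control libraries and to 3.07%, 2.86% and 3.31% in BARD1-expressing libraries. The ratio was 4.27-fold higher in BARD1-expressing cells and did not overlap between the groups (exact two-sided permutation test, p = 0.1, the smallest possible). In both groups ITGB4 transcripts were thus a small fraction of ITGA6 transcripts per length. Among hemidesmosome and tetraspanin partners 4 of 9 tested genes rose and 0 fell, where the edgeR test called 16.5% and 12.4% of all tested genes. DST, whose epithelial product is the hemidesmosome linker BP230, rose by a log2 fold change of 0.28 ± 0.048. The counts are for the whole DST gene and do not show whether the epithelial form rose. The plakin PLEC, which binds β4 directly, stood at 808 ± 41.5 and 810 ± 109 CPM (means ± SD of 3 libraries), and the α3 and α6 partner CD151 at 172 ± 5.54 and 177 ± 16.9 CPM. Neither PLEC nor CD151 was called, and the hemidesmosome collagen COL17A1, at 1.5 ± 0.308 and 1.14 ± 0.243 CPM (means ± SD of 3 libraries), was not called either. The other 3 that rose were the tetraspanins CD9 (0.27 ± 0.053), CD81 (0.21 ± 0.049) and CD82 (0.84 ± 0.237), on the log2 scale. The libraries of the groups overlapped for CD82 despite its call.

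**Figure D2:**
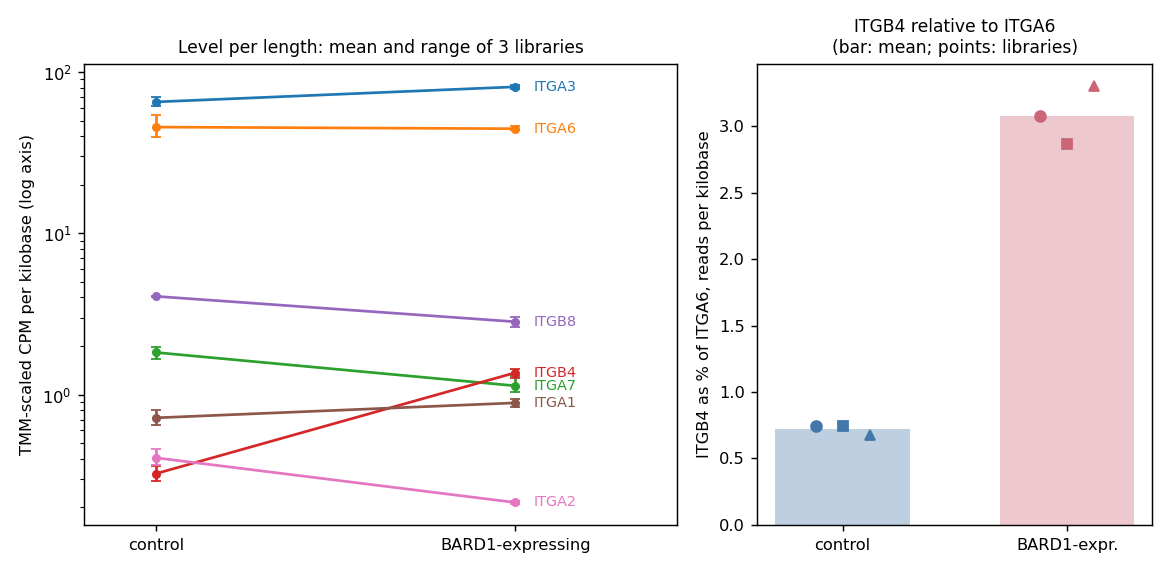
Left, level per length of the 7 tested subunits (TMM-scaled CPM per kilobase, log axis), points at the mean and bars over the range of 3 libraries. Right, ITGB4 as a percentage of ITGA6 in reads per kilobase, with a point per library and bars at the mean: control libraries lie at 0.676% to 0.746% and BARD1-expressing libraries at 2.86% to 3.31%.

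ITGB8 (ENSG00000105855, chromosome 7, 20330702 to 20415754) had 61.9, 61.7 and 61.2 CPM in control libraries and 45.6, 40.01 and 42.9 CPM in BARD1-expressing libraries. The control libraries lay within 1 CPM of each other, and the groups were 15.6 CPM apart at their nearest. ITGB8 fell by 0.53 ± 0.068 on the log2 scale, or 1.44-fold (edgeR adjusted p = 1.52e-06). Its only known partner subunit, ITGAV, was not called (log2 fold change 0.05 ± 0.056, edgeR adjusted p = 0.532). Of 6 tested genes for latent TGF-β and its carrier proteins, 2 rose and 2 fell (against 16.5% higher and 12.4% lower among all tested genes). TGFB1, a ligand that αVβ8 can activate, rose from 143 ± 1.67 to 202 ± 7.59 CPM, and the latent TGF-β binding protein gene LTBP3 rose from 15.1 ± 1.89 to 23.6 ± 1.48 CPM (means ± SD of 3 libraries). TGFB2 fell from 8.69 ± 0.618 to 6.675 ± 0.527 CPM and NRROS, which presents latent TGF-β1 on myeloid cells, from 3.35 ± 0.746 to 1.88 ± 0.21 CPM (means ± SD of 3 libraries).

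The collagen-binding α subunits were all low in these cells. ITGA1 (ENSG00000213949, chromosome 5, 52787896 to 52959210) encodes α1, which prefers type IV collagen of basement membranes. It had 14.9, 12.04 and 13.01 CPM in control libraries and 17.3, 16.7 and 15.5 CPM in BARD1-expressing libraries, with a gap of only 0.568 CPM between the groups. The log2 fold change was 0.31 ± 0.105, or 1.24-fold (edgeR adjusted p = 0.0304). That call was lost with DESeq2 (adjusted p = 0.0608). By edgeR it was lost when control library 2 was left out (adjusted p = 0.163), or control library 3 (0.0763). It was likewise lost by edgeR when BARD1-expressing library 1 (adjusted p = 0.0669) or library 2 (0.0849) was left out. PELO, which encodes an mRNA surveillance factor, begins 0.044 kb after the start of ITGA1 on the same strand and shares 475 exon bases with it, and PELO was not called (log2 fold change -0.06 ± 0.068).

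ITGA2 (ENSG00000164171, chromosome 5, 52989326 to 53094779) encodes α2, which prefers fibrillar collagens such as type I. It had 70, 83 and 67 reads in control libraries and 22, 41 and 25 reads in BARD1-expressing libraries. The levels were 2.89, 3.64 and 3.09 CPM in control and 1.73, 1.69 and 1.66 CPM in BARD1-expressing libraries, so the groups were separate by 1.16 CPM. ITGA2 fell by 0.92 ± 0.221 on the log2 scale, or 1.89-fold (edgeR adjusted p = 0.00273). With each library thinned at random to the smallest total, the log2 fold change was -0.62 and the call was lost (edgeR adjusted p = 0.137). That was a single random draw, and other draws were not made.

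ITGA10 and ITGA11 were too low to be tested. ITGA10 (ENSG00000143127, chromosome 1, 145891208 to 145910189), a collagen receptor of cartilage, had 2, 3 and 2 reads in control libraries and 0, 1 and 1 in BARD1-expressing libraries. ITGA11 (ENSG00000137809, chromosome 15, 68296533 to 68432162), a collagen receptor of fibroblasts, had 3, 0 and 3 reads in control libraries and 9, 2 and 3 in BARD1-expressing libraries. Most of these counts are at or under the 3 reads that a count of 0 allows, and a difference was not detectable at this depth.

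ITGA1 and ITGA2 are next to each other on chromosome 5 in the same orientation, 30.1 kb apart, and were called in opposite directions. Within libraries ITGA2 amounted to 45.8%, 71.1% and 56.1% of ITGA1 per kilobase in control and to 24%, 24.1% and 25.6% in BARD1-expressing libraries. That ratio, chosen after the values were seen, was 2.31-fold lower in BARD1-expressing cells (exact two-sided permutation test, p = 0.1, the smallest possible). MOCS2, a molybdenum cofactor synthesis gene on the opposite strand 0.9 kb beyond ITGA2, was not called (log2 fold change -0.07 ± 0.07). AC008966.1, annotated as antisense and overlapping MOCS2 15.1 kb beyond ITGA2, fell by 0.78 ± 0.245 on the log2 scale (edgeR adjusted p = 0.0183).

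**Figure D3:**
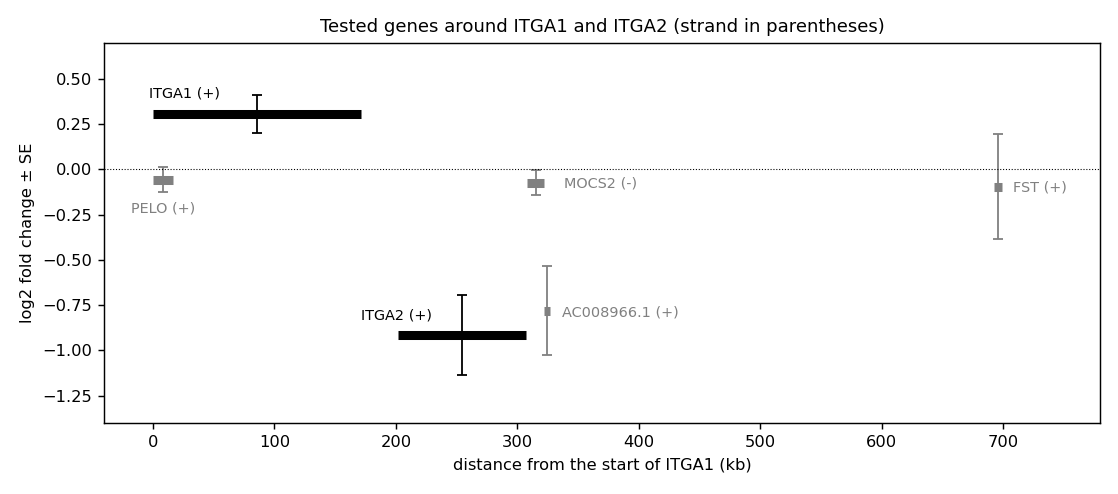
Log2 fold change (BARD1-expressing over control, bars SE) of the tested genes around ITGA1 and ITGA2, drawn to scale against the distance from the start of ITGA1 in kb. ITGA1 lies above 0 at 0.31 and ITGA2 below at -0.92, while PELO and MOCS2 lie near 0.

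Because these neighbours were called in opposite directions, the stretches just before their starts are shown, although the ITGA1 call was lost in 5 of 13 alternatives. The stretches were read from RefSeq's promoter table (GRCh38.p14, plus strand, 5′ to 3′) and end before the annotated gene starts. PELO, which was not called, starts 0.044 kb after ITGA1 on the same strand, so the ITGA1 stretch also lies just before PELO. The ITGA1 stretch is chr5:52787666-52787895 and the ITGA2 stretch is chr5:52989102-52989325. Capitals mark the GC box, GGGCGG, or its reverse complement CCGCCC.
ITGA1: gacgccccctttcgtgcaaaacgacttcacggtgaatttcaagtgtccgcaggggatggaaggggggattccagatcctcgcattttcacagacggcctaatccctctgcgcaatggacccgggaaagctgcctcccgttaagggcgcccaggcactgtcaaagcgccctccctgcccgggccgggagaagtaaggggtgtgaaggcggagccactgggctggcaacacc
ITGA2: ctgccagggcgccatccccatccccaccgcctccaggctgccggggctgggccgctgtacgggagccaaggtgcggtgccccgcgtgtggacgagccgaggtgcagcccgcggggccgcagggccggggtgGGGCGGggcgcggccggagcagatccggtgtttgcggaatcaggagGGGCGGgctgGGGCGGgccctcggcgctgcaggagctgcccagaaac

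The ITGA2 stretch holds 3 GC boxes, and a further match lies 9 bases before the RefSeq start, outside the stretch shown. The ITGA1 stretch holds 0, and 42.6% of the 35116 RefSeq windows of 250 bases before a start hold at least 1. Over 250 bases, ITGA2 has 26 CpG dinucleotides and ITGA1 has 16, where the median window has 11. Neither holds the TATA box TATAAA, the AP-1 motif TGANTCA or the CCAAT box on either strand, which 10.7%, 6.57% and 32% of all windows hold. No match overlaps that of another of these motifs, since only the GC box occurred, and each GC box contains 1 CpG. A match describes letters only. The table had entries for 6 of the 9 subunits.

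Compared per length, α3 and α6 transcripts made up nearly all of the set. In control cells the order was ITGA3 (65.2 ± 4.41 TMM CPM per kilobase), ITGA6 (45.5 ± 7.53), ITGB8 (4.06 ± 0.024), ITGA7 (1.82 ± 0.158), ITGA1 (0.717 ± 0.078), ITGA2 (0.405 ± 0.049) and ITGB4 (0.323 ± 0.035, SD, n = 3 each). ITGA10 and ITGA11 followed, each under 0.02 CPM per kilobase, and no neighbours in this order overlapped, though ITGA10 and ITGA11 were both near the 3-read limit. In BARD1-expressing cells ITGB4 (1.37 ± 0.094) stood behind ITGA3 (80.9 ± 2.78), ITGA6 (44.5 ± 1.3) and ITGB8 (2.83 ± 0.185), and ahead of ITGA7 (1.13 ± 0.155), ITGA1 (0.888 ± 0.05) and ITGA2 (0.214 ± 0.005), in TMM CPM per kilobase. There ITGB4 and ITGA7 overlapped across libraries, as did ITGA11 and ITGA10.

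ITGA3 took 55.3% ± 4.91 of the summed level per length of the 9 subunits in control cells and 61.3% ± 1.47 in BARD1-expressing cells, ITGA6 38.5% ± 5.2 and 33.8% ± 1.26 (SD, n = 3 each). The sum itself was 118 ± 4.02 and 132 ± 1.51 TMM CPM per kilobase and did not overlap between the groups. The collagen-binding α subunits together amounted to 1.1%, 1.02% and 0.965% of the laminin-binding α subunits in control libraries and to 0.987%, 0.884% and 0.86% in BARD1-expressing libraries. The groups overlapped in that ratio, which differed by -0.18 on the log2 scale (exact two-sided permutation test, p = 0.2).

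**Figure D4:**
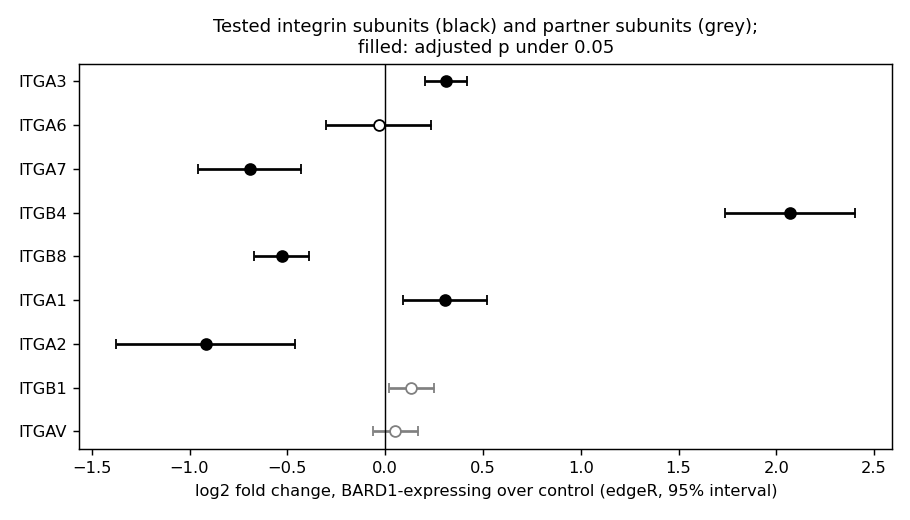
Log2 fold change of the 7 tested subunits (black) and of the partner subunits ITGB1 and ITGAV (grey), with 95% intervals from edgeR. Filled points are called at an adjusted p under 0.05. ITGB4 stands apart at 2.07, and the interval of ITGA6 includes 0.

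ITGB1, the β1 partner of 7 of the 9 subunits, stood at 716 ± 56.7 and 785 ± 44.9 CPM in the control and BARD1-expressing groups (SD, n = 3 each). The groups overlapped and it was not called (log2 fold change 0.13 ± 0.056, edgeR adjusted p = 0.0794). Of the other 12 integrin subunits tested, ITGB1 included, 6 rose and 0 fell by the same edgeR test, where 16.5% and 12.4% of all tested genes did. ITGB5, an αV partner, rose from 52.4 ± 1.43 to 71.9 ± 3.12 CPM, ITGB2, the β subunit of leukocyte integrins, from 5.92 ± 0.727 to 10.7 ± 1.18 CPM and ITGA2B, the platelet α subunit, from 2.28 ± 0.572 to 4.9 ± 0.699 CPM (means ± SD of 3 libraries). The fibronectin receptor subunit ITGA5 was not called (log2 fold change 0.11 ± 0.063). The median log2 fold change of these 12 was 0.22.

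Among the 11 tested laminin chains and laminin-like ligands reported here 4 rose and 2 fell (against 16.5% higher and 12.4% lower among all tested genes), with a median log2 fold change of 0.13. LAMA3, the α3 chain of laminin-332, fell from 1.97 ± 0.376 to 0.773 ± 0.285 CPM, and LAMB3, its β3 chain, was not called, at 129 ± 13.7 and 115 ± 5.54 CPM. LAMA5, the α chain of laminin-511, rose from 52.5 ± 7.41 to 104 ± 6.32 CPM (means ± SD of 3 libraries), and LAMB1 (0.18 ± 0.054) and LAMC1 (0.13 ± 0.049), its other chains, rose by small log2 fold changes. NPNT, the matrix protein nephronectin, fell by 1.08 ± 0.218 on the log2 scale. LAMA3 lies on chromosome 18, where 74.6% of 228 tested genes were lower, against 11.5% elsewhere. LAMA1, a laminin chain also on chromosome 18, was not called (log2 fold change -0.096 ± 0.047). The part of this location in the fall of LAMA3 was not tested.

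Among 8 tested collagen genes 4 rose and 1 fell (against 16.5% higher and 12.4% lower among all tested genes), with a median log2 fold change of 0.44. COL4A1 and COL4A2, the chains of the type IV collagen that α1β1 binds, rose from 89.5 ± 4.22 to 210.1 ± 6.94 CPM and from 221 ± 12.6 to 441 ± 36.1 CPM (means ± SD of 3 libraries). COL1A1, of the type I collagen that α2β1 binds, fell from 1054 ± 38.2 to 845 ± 24.3 CPM, while COL1A2 had 1 read over all 6 libraries together. COL6A3 rose from 0.144 CPM, near the level of 3 reads, to 1.62 ± 0.655 CPM (SD, n = 3). Of 9 other receptors for collagen or laminin 6 rose and 0 fell (against 16.5% higher and 12.4% lower among all tested genes), with a median log2 fold change of 0.32. They included the proteoglycan SDC4 (0.73 ± 0.053), the laminin α5 receptor BCAM (0.5 ± 0.071), the hyaluronan receptor CD44 (0.32 ± 0.049), the collagen receptor kinase DDR1 (0.38 ± 0.086) and dystroglycan, DAG1 (0.22 ± 0.05), given as log2 fold changes.

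**Figure D5:**
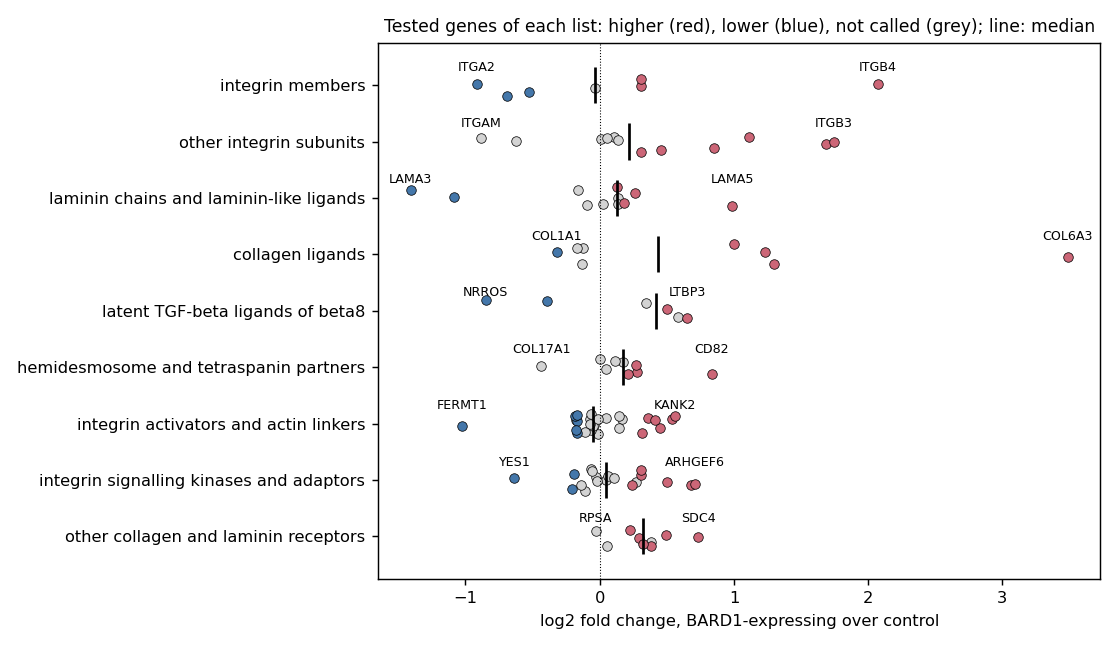
Log2 fold change of the tested genes reported in each list, 1 point per gene, with genes called higher in red, lower in blue and not called in grey. Black lines are medians; those of the integrin members and of the 26 activators and actin linkers lie near 0 (-0.03 and -0.05), and the lowest and highest gene of each list is named.

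Inside the cell, of 26 tested activators and actin linkers of integrins 6 rose and 6 fell (against 16.5% higher and 12.4% lower among all tested genes). Their median log2 fold change was -0.05, and TLN1, the talin that activates integrins, was not called (-0.015 ± 0.049). FERMT1, the epithelial kindlin, fell from 22.7 ± 1.74 to 11.2 ± 0.495 CPM (means ± SD of 3 libraries), and FERMT2, the widely expressed kindlin, fell by 0.17 ± 0.055 on the log2 scale. The adhesion proteins KANK2 (0.56 ± 0.065) and TNS3 (0.54 ± 0.079) rose, as log2 fold changes. Of 19 tested signalling kinases and adaptors 6 rose and 3 fell, where 16.5% and 12.4% of all tested genes did. NEDD9, a scaffold of the Cas family, rose from 54.3 ± 1.4 to 87.3 ± 3.79 CPM and the kinase gene FYN from 37.2 ± 1.2 to 52.8 ± 3.75 CPM, whereas YES1, on chromosome 18, fell from 154 ± 8.02 to 99.2 ± 6.43 CPM (means ± SD of 3 libraries). PTK2, which encodes focal adhesion kinase, fell by 0.2 ± 0.05 on the log2 scale.

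Profiles most like those of the 2 subunits with the smallest p were sought among 10384 other tested protein-coding genes with at least 5 CPM, as the root mean square difference of centred log2 CPM over the 6 libraries. With 2 groups this measure mostly follows the group difference. Nearest to ITGB4 were the interferon-induced genes IFIT3 (0.105) and DDX60 (0.142) and the nuclear factor gene TOX (0.169). Their log2 fold changes were 2.16 ± 0.145, 2.11 ± 0.126 and 1.77 ± 0.145. Nearest to ITGB8 were EPB41L3 (0.024), which encodes a membrane skeleton protein, the growth factor gene PDGFC (0.025) and CDC42EP3 (0.027), with log2 fold changes of -0.5 ± 0.051, -0.54 ± 0.071 and -0.53 ± 0.053.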

How the data were processed

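The authors deposited unnormalised counts of reads for 58735 genes. Tools named in the submitters' processing notes are featureCounts 1.5.0-p3, HISAT2 2.0.5 and DESeq2 1.20.0, and the build is GRCh38 (hg38); roles and options are not listed. The labels' protocols allow directional or non-directional libraries and no strand setting is recorded. Reads from exon bases that overlapping genes share therefore cannot be told apart. Such bases made up 0% (ITGA2, for example) to 6.39% (ITGA1) of the exon length of the members. Coordinates of all genes, and the deposited lengths of the 9 members, equalled those of GENCODE 29 (exon union).

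Libraries were matched to columns by their descriptions. Counts passing filterByExpr (15400 genes) were TMM-scaled and tested with edgeR 4.0.16 in R 4.3.3 (robust quasi-likelihood test, group as the only term, 4 residual degrees of freedom), adjusted by Benjamini-Hochberg. A positive fold change means higher in BARD1-expressing cells, and SE come from that test. Ratios used counts per kilobase plus 0.5 count. Replicates differed beyond sampling noise (chi-square per degree of freedom 3.41 to 8.11). For 27 genes, symbols turned into dates were restored from identifiers. The pipeline was tested on simulated counts. Alternatives were other scalings, filters, DESeq2 1.42.0, thinning, a replicate block and leaving out each library.

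Members and lists were chosen with earlier results of these data known. Named are all members, BARD1, up to 3 called genes of each list with the smallest p, overlapping genes and the nearest profiles. Other genes were named after their values were seen. The result of 1 gene of the laminin list is not reported here, and that list's counts leave it out.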

Additional observations from a re-analysis of the deposited data

How the results depend on the processing

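The directions and calls of ITGA3, ITGA7, ITGB4 and ITGB8 held in all 13 alternatives, and ITGA6 was called in none of them. ITGA1 kept its direction but lost its call in 5 of 13 (log2 fold change 0.23 to 0.44). ITGA2 lost its call in 1 of 13, with libraries thinned in a single random draw (-1 to -0.62). Higher subunits numbered 2 or 3 and lower subunits 2 or 3 throughout, and the count of genes called was 3317 to 4755 with 1 library left out. Deviations of same-numbered libraries correlated at -0.11, -0.03 and -0.01, and those of different-numbered libraries at -0.11 to 0.15. With 3 libraries a group, these values cannot decide whether same-numbered libraries shared a culture or day. With the replicate block 3 subunits were higher and 3 lower, and 3990 genes were called. ITGB4 per ITGA6 differed by 2.04 to 2.14 on the log2 scale with 1 library left out. The collagen-binding to laminin-binding ratio, -0.18 per kilobase, was -0.0496 with raw counts, where gene length sets the weight of each subunit, and -0.24 to -0.13 with 1 library left out. Depth limits ITGA10 and ITGA11, which were not tested, and the precision of ITGA2 and ITGB4.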

Other observations

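The 3 nearest tested genes on each side of each tested subunit were looked up as well, 6 neighbours per subunit. Some, such as GALK1 at ITGB4, overlap their subunit, but others are distant. ISL1, lower, lies 1393 kb from ITGA1, and NCKAP1L, the highest neighbour of ITGA7, lies 1136 kb from it. TWIST1 and DNAH11, the higher neighbours of ITGB8, lie 1213 and 1127 kb from it. Their counts stand against 16.5% higher and 12.4% lower among all tested genes. Around the subunits that rose, the neighbours of ITGB4 lay between -0.26 and 0.11 on the log2 scale with 0 higher and 1 lower (RECQL5), those of ITGA3 between -0.34 and 0.55 with 1 higher and 0 lower, and those of ITGA1 between -0.92 and 0.03 with 0 higher and 2 lower. Around the subunits that fell, the neighbours of ITGA2 lay between -0.78 and 0.31 with 1 higher and 2 lower, those of ITGA7 between -0.3 and 1.58 with 2 higher and 0 lower, and those of ITGB8 between -0.7 and 0.49 with 2 higher and 1 lower. ITGA1 and ITGA2 are among each other's neighbours. Around ITGA6, which was not called, they lay between -0.39 and 1.83 with 3 higher and 1 lower, and the homeobox gene DLX2 was the highest (1.83 ± 0.212).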
